A study of Mus musculus with 35 samples.

Results

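Microglia, the resident macrophages of the brain, were compared between postnatal day 15 (P15) and postnatal day 6 (P6) across genes, to describe which programmes rose or fell in the second postnatal week. The comparison rested on 22 of the 35 mice with an mRNA library, which are all 12 mice labelled P15 (6 females and 6 males) and 10 of the 11 mice labelled P6 (4 females and 6 males). The remaining one, P6 female 6, was left out because the study had set it aside as an outlier after multidimensional scaling. All mice were wild-type (WT) C57BL/6 animals without treatment, and each gave 1 library from its whole brain. CD45+ cells were collected by immunopanning, in which dissociated cells attach to a dish through an antibody against the leukocyte surface protein CD45. The panning therefore takes every CD45+ leukocyte, border macrophages, monocytes and lymphocytes included, and not microglia alone. A further 12 mice of 8 weeks (6 females and 6 males) entered the fit so that its estimate of the spread between mice rested on 34 animals, and their values are given beside the others at the end. Nothing in the labels names a litter or a batch, so p-values measure the spread between these mice.

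Microglia enter the brain from the yolk sac before birth and multiply inside it during the first weeks after birth. In this window they clear dying neurons and surplus synapses, and a transient population with a highly phagocytic profile lies along the young white matter. Adult microglia instead carry a set of surface sensors for nucleotides, chemokines and lipids, which depends on colony-stimulating factor 1 receptor (CSF1R) and transforming growth factor beta (TGF-β) signalling. Over the same days the brain around them loses many of its neuroblasts, gains astrocyte mass and begins to myelinate.

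Levels are given as CPM, a gene's count relative to all fragments on genes in its library after TMM scaling, as the median of an age with its lowest and highest mouse in parentheses, or as the mean ± SD (n = 10 at P6, n = 12 at P15). Differences are log2 fold changes (log2FC) of P15 over P6, in which the female and the male means of an age count equally, with their standard error (SE). A gene is said to have risen or fallen where edgeR's quasi-likelihood test returned an FDR, the p adjusted by the Benjamini-Hochberg method, below 0.05 over all 17612 genes tested, and to have passed 2-fold where the same fit's test against a 2-fold change (glmTreat) gave an FDR below 0.05. By these rules 30.4% of the genes rose and 31.4% fell, and past 2-fold 4.87% rose and 4.85% fell. The libraries held from 23316107 to 38965078 fragments assigned to genes. At this depth 3 counts, taken as the floor of detection, corresponded to 0.0770 to 0.129 CPM depending on the library. This limit accounts for counting error only.

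The panned cells carried microglial RNA at both ages. The 6 microglia markers fixed for this check (Tmem119, P2ry12, Sall1, Fcrls and Siglech among them) had a mean log2 CPM of 9.59 ± 0.31 at P6 and 11.06 ± 0.32 at P15, and all 6 were higher at P15. Ptprc (ENSMUSG00000026395, chr1:138062861-138175708 of GRCm38/mm10), which encodes CD45 itself, lay at 110.0 CPM (62.7 to 192) at P6 and at 161 CPM (30.1 to 207) at P15. The ages overlapped widely, and the difference was small (log2FC 0.51, SE 0.214, FDR = 0.0396). It was not called in 14 of 21 alternative settings, and its log2FC was 1.15 in females alone and −0.14 in males alone. P15 male 1 lay far below the other P15 males in Ptprc, at a log2 CPM of 4.92.

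RNA of other cells was present and moved with age. Markers of neural progenitors and immature neurons (9 genes, among them Dcx, Sox11 and Neurod1) all fell. Their mean log2 CPM was 4.54 to 6.58 in the P6 mice and 2.12 to 4.98 in the P15 mice. All 10 markers of DLX and GABAergic neuroblasts fell too, but Dlx2 and Sp8 are on both lists. Markers of mature neurons overlapped between the ages (4.77 to 6.31 at P6 and 3.89 to 6.53 at P15, with 2 of 6 higher and 2 lower). All 10 markers of myelinating oligodendrocytes rose and the ages did not overlap (2.09 to 3.50 against 4.51 to 6.94). Mbp, the myelin basic protein, went from 141 CPM (83.5 to 324) to 911 CPM (385 to 2177). Of 9 astrocyte markers 6 rose and none fell, and Slc1a2, the main astrocytic glutamate transporter, had 232 ± 63.5 CPM at P6 and 1664 ± 1007 CPM at P15. Erythroid markers (7 of 7) and lymphocyte markers (10 of 14) rose too, the latter at low levels of −0.94 to 0.50 and 0.20 to 1.32 on the mean log2 CPM scale. For border macrophages and monocytes, 4 of 9 markers rose and 3 fell (median log2FC 0.069, and −0.063 with library size scaling). Among the remaining lists, 2 of 10 granule neuron markers rose and 6 fell, and 1 of 8 oligodendrocyte precursor markers rose and 3 fell. Of the endothelial markers 4 of 10 rose, of the pericyte markers 2 of 10 and of the neutrophil markers 3 of 8, with none falling. Over all genes 30.4% rose and 31.4% fell, so these counts of rises lie near that share or under it. Fibroblast markers fell in 5 of 8 cases with none rising, and for choroid plexus and ependyma 2 of 7 rose and 3 fell. Neurod1 is on the progenitor and the granule neuron lists, and Pdgfra on the oligodendrocyte precursor and the fibroblast lists. The small counts depended on single libraries: 1 neutrophil and 0 pericyte markers rose without P6 female 5, 0 pericyte markers without P6 female 3 and 1 without P6 female 1 or without P15 male 1. Mature neuron markers rose in 1 case without P15 male 1 or without any one of P6 females 1, 2 and 3, and 1 astrocyte marker fell without P15 male 1. In bulk RNA, fewer cells of a type and less of its RNA per cell cannot be told apart.

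**Figure D1:**
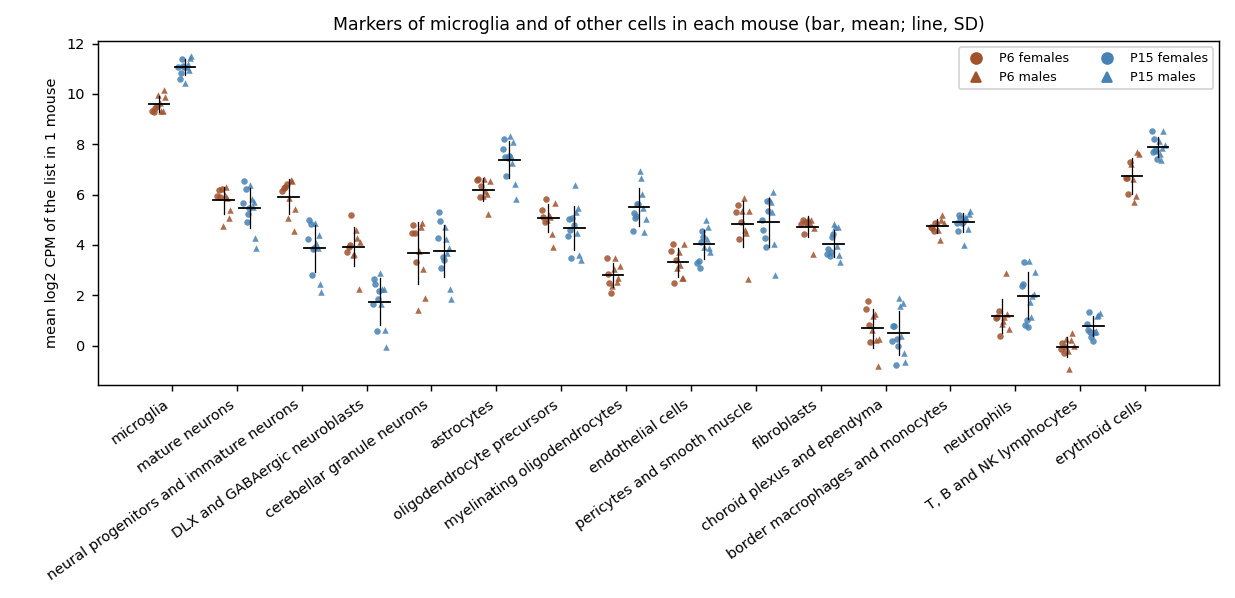
Mean log2 CPM of each cell type's markers (vertical axis) in each of the 22 mice, with P6 in brown and P15 in blue, females as circles and males as triangles, and the bar and line giving the mean and SD of an age. Microglia markers and myelin markers are separated between the ages, progenitor markers fall with some overlap, and mature neuron markers overlap throughout.

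Libraries also differed within an age. P15 males 5 and 6 had the lowest progenitor marker levels at P15 (2.45 and 2.12) and the highest microglia marker levels (11.43 and 11.49), and P6 males 1 and 5 held the same places among the P6 mice (progenitors 5.08 and 4.54, microglia 9.96 and 10.14). P15 male 1 had the lowest microglia marker level at P15, 10.44. Every count of risen or fallen members below was therefore recomputed without P15 males 5 and 6, without these and P6 males 1 and 5, without P15 male 1, with the mature neuron level as a covariate and with the progenitor level as a covariate. The progenitor levels of the 2 ages overlapped only between 4.54 and 4.98, so the last of these fits takes away much of the age difference itself and cannot tell age from progenitor RNA. In it 0 erythroid, 3 lymphocyte, 1 border macrophage and 8 neutrophil markers rose, and none of the neuroblast, granule neuron or fibroblast markers fell. Mature neuron markers rose in 4 cases, oligodendrocyte precursor markers in 4, granule neuron markers in 4, pericyte markers in 6 and fibroblast markers in 2. None of the mature neuron, oligodendrocyte precursor or choroid plexus and ependyma markers fell in that fit. Of the progenitor markers themselves none fell and 1 rose. The covariate is the mean of these markers, so their own values in that fit follow from how it was made. The same holds for Dlx2 and Sp8 of the neuroblast list and Neurod1 of the granule neuron list, which are among them. Without P15 males 5 and 6, 1 oligodendrocyte precursor marker fell, and without these and P6 males 1 and 5 (all 4 males, below) 1 neutrophil marker rose and 1 astrocyte marker fell. Where one of these fits, or leaving out a P6 female, moved a printed count of a programme list by more than 1.5 times, the moved count is given beside it. Values in females alone or in males alone are contrasts within that sex in the same fit.

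Of the 17612 genes tested, 5347 rose and 5535 fell, while 6730 did neither. Past 2-fold, 858 rose and 855 fell, of which 646 and 765 are protein-coding. Every P15 mouse lay above every P6 mouse for 5.25% of the genes and below every P6 mouse for 7.72%. The median log2FC over all genes was −0.014, with quartiles of −0.47 and 0.49, and the members of each list below are read against these shares and this median. Scaling by library size without TMM moved the median to −0.14 and the share of calls that were rises from 49.1% to 39.4%.

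The genes that fell most and those that rose most are given with their known roles, and no test compared the roles. Among the 15 protein-coding genes that fell most, with at least 10 CPM at P6 and no overlap between the ages, were Spp1 (log2FC −6.95), Gpnmb (−6.60), Atp6v0d2 (−5.16) and Hpse (−3.67), all genes of phagocytic macrophages, lysosomes or matrix breakdown. A further 8 of the 15 serve DNA replication or division, namely Pclaf (−3.33), Dtl (−3.15), Kif4 (−3.08), Chaf1b (−3.01), Stil (−2.99), Mybl2 (−2.94), Ccnb1 (−2.93) and Kntc1 (−2.86). The other three were Baiap2l2 (−3.36), Cdca7l (−2.87) and Prdm13 (−7.74), the latter a transcription factor of developing neurons that had 0 to 5 counts in the P15 libraries.

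Several of the 15 largest rises are genes of neurons or glia and not of macrophages. Gabra6 and Cbln3, which mark maturing cerebellar granule neurons, rose from 0.0124 CPM (0 to 0.225) to 9.55 CPM (2.10 to 38.2) and from 0.518 CPM (0.0879 to 1.42) to 28.4 CPM (9.02 to 71.7). They are the 2 risers among the 10 granule neuron markers, of which 6 fell, and the list's median log2FC was −1.73. Grin2c (log2FC 4.91), which encodes a glutamate receptor subunit, the astrocytic connexin gene Gjb6 (4.64) and the myelin gene Mal (4.18) rose beside the astrocyte and myelin markers above. Upk1b (4.73), which encodes a tetraspanin and is also on the homeostatic list below, rose as well. Itgae (4.07), which encodes an integrin subunit, and Il7r (4.04), which encodes a cytokine receptor, are known from leukocytes. The stress gene Hspa1b (4.17), Fam107a (4.69), Gpld1 (3.90), Extl1 (4.78), Kcng4 (6.10) and Klhdc7a (5.83) were also among the 15. The part of other cells' RNA in these rises was not tested.

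The mature surface genes of microglia rose as a block. All 22 genes listed as homeostatic rose, 14 of them past 2-fold, with a median log2FC of 1.70, and 13 had every P15 mouse above every P6 mouse. The list's mean log2 CPM ran from 8.35 to 9.19 in the P6 mice and from 9.88 to 10.85 in the P15 mice, without overlap. Tmem119 (ENSMUSG00000054675, chr5:113793729-113800516), a transmembrane protein used to tell microglia from other macrophages, lay at 291 CPM (225 to 405) at P6. At P15 it lay at 2356 CPM (1329 to 3238), and the lowest P15 mouse was above the highest P6 mouse. The fitted change between the ages was 7.74-fold (log2FC 2.95, SE 0.146, FDR = 2.43e-17). Selplg, the P-selectin ligand, made the largest move of the well expressed members, from 257 CPM (198 to 369) to 2690.1 CPM (1500.0 to 3706), a log2FC of 3.28 (SE 0.149, FDR = 2.79e-18). P2ry12, the ADP receptor that steers microglial processes, went from 827 CPM (538 to 1337) to 2828 CPM (987 to 3870.5), a log2FC of 1.80 (SE 0.172, FDR = 1.42e-10), and its ages overlapped through 1 P15 mouse, male 1.

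The list also holds receptors on which microglial survival and position depend. Csf1r, the receptor for CSF1 and IL-34, went from 4033 CPM (3070.4 to 5772) to 9637 CPM (5893 to 14555), a log2FC of 1.31 (SE 0.133, FDR = 5.07e-10). Cx3cr1, the receptor for neuronal fractalkine, had 2545 ± 606 CPM at P6 and 4991 ± 1204 CPM at P15 (log2FC 1.0, SE 0.127, FDR = 4.26e-08). Its change did not pass the 2-fold test (glmTreat FDR = 1.0). Cst3, which encodes the secreted protease inhibitor cystatin C, rose 4.14-fold to a level of 9646 CPM (5530.1 to 13650.0). Slc2a5, the fructose transporter gene, rose from 105 to 474 CPM, and Sparc, a secreted matrix protein gene, from 1956 to 6756 CPM. The smallest changes of the list were those of Crybb1 (log2FC 0.65) and Fcrls (0.83). Without the libraries named above the list kept 22, 22 and 22 rises out of 22, and with the progenitor covariate 19 rose, 7 past 2-fold, at a median of 0.97. Among the members not called in that fit were, in log2FC, Crybb1 (0.057, FDR = 0.792) and Fcrls (0.15, FDR = 0.265). The summed progenitor level fell beside this rise and its part in it was not tested.

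**Figure D2:**
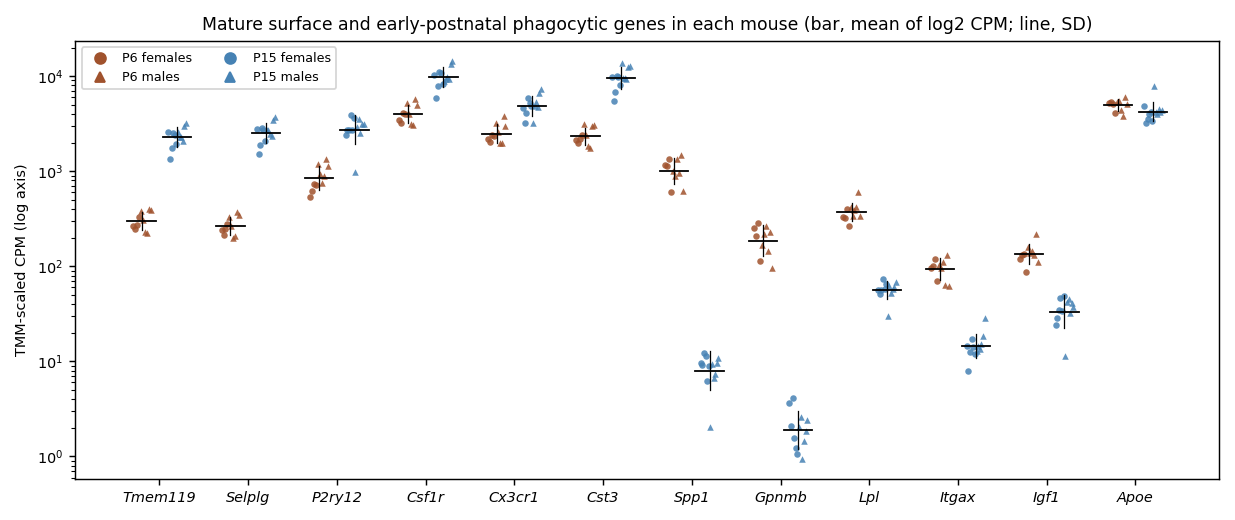
TMM-scaled CPM on a log axis of 6 mature surface or secreted genes and 6 early-postnatal phagocytic genes in each of the 22 mice, with P6 in brown, P15 in blue, females as circles and males as triangles, and the bar and line giving the mean and SD of log2 CPM. Spp1 and Gpnmb are lower by the widest margin, Tmem119 and Selplg are separated upwards, and Apoe overlaps.

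The phagocytic profile of the early postnatal brain fell. Of the 22 genes listed for it, 20 fell, 10 past 2-fold, none rose, and 14 had every P15 mouse below every P6 mouse (median log2FC −1.36). Spp1 (ENSMUSG00000029304, chr5:104435118-104441050), which encodes the secreted bridging protein osteopontin, lay at 1072 CPM (606 to 1489) at P6 and at 9.20 CPM (2.03 to 12.2) at P15. This was a fall of 123-fold (log2FC −6.95, SE 0.247, FDR = 6.32e-21), and the ages were far apart. Gpnmb (ENSMUSG00000029816, chr6:49036546-49070929), a lysosomal and surface glycoprotein gene, fell from 213 CPM (95.7 to 283) to 1.95 CPM (0.944 to 4.11), or 96.8-fold (log2FC −6.60, SE 0.275, FDR = 4.94e-19).

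Lpl, the lipoprotein lipase gene, went from 365 CPM (263 to 609.9) to 57.2 CPM (29.9 to 73.9), a log2FC of −2.69 (SE 0.126, FDR = 6.20e-18), and Itgax, which encodes the integrin CD11c, from 98.2 CPM (62.2 to 133) to 14.2 CPM (7.94 to 28.5), a log2FC of −2.68 (SE 0.148, FDR = 3.56e-16). Both had every P15 mouse below every P6 mouse. Igf1, a growth factor for neurons and oligodendrocytes, had 138 ± 34.9 CPM at P6 and 35.4 ± 10.5 CPM at P15 (log2FC −1.92, SE 0.169, FDR = 2.46e-11). Clec7a, the receptor Dectin-1, fell 2.58-fold (FDR = 3.91e-09) and Lgals3, galectin-3, 3.85-fold (FDR = 1.11e-12). Cd63 (log2FC −0.73) and Cd9 (−0.52), tetraspanins of endosomes and the surface, fell without passing 2-fold. Apoe, the lipid carrier that is also abundant in astrocytes, had 4999.8 ± 677 CPM and 4355 ± 1194 CPM with overlapping ages and was not called (log2FC −0.21, FDR = 0.164), and without P15 male 1 it fell (−0.30, FDR = 0.0244). Hmox1 was not called either, but was in 3 of 21 alternatives (−0.35, FDR = 0.130). Under the progenitor covariate 19 of the 22 fell, at a median of −1.70, and without P15 male 1, which was the lowest P15 mouse in Spp1, 21 fell.

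Transcription factors of microglia mostly rose, by modest amounts. Of 23 tested, 16 rose and 2 fell, with 3 past 2-fold and a median log2FC of 0.67. Cebpa (log2FC 1.46) and Tal1 (1.42) were among those past 2-fold. Sall1, the factor that separates microglia from other macrophages, rose from 380.1 to 785 CPM (log2FC 1.09, SE 0.133, FDR = 2.17e-08). Spi1, which encodes PU.1, the lineage factor of all macrophages, was at 337 ± 78.6 and 326 ± 67.7 CPM and was not called (−0.021, FDR = 0.891). Runx1 (0.15, FDR = 0.228) and Mef2c (0.073, FDR = 0.675) were not called. Tfec (−0.88) and Egr2 (−0.54) fell, the latter not called in 4 of 21 alternatives. Without P6 female 1, 1 of the factors fell. With the progenitor covariate 9 rose, 1 past 2-fold, and 4 fell, at a median of 0.037. In that fit Spi1 (−0.64, FDR = 2.07e-04) and Runx1 (−0.46, FDR = 3.25e-04) fell.

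Cell division genes fell together and mostly past 2-fold. All 41 DNA replication genes fell, 36 past 2-fold with a median log2FC of −2.16, and all 60 genes of mitosis fell, 58 past 2-fold with a median of −2.48. Every P15 mouse lay below every P6 mouse for 40 and 58 of them. Cdk1, the kinase that drives entry into mitosis, and Top2a, the topoisomerase that untangles chromosomes, stand for the mitotic genes here, Ccnb2 for their cyclins and Mcm6, a subunit of the replicative helicase, for the replication genes. Their sequence just upstream of the transcription start is shown because genes of the division cycle are known to share a few short promoter elements, and these 4 moved together. The windows are RefSeq's on GRCm38.p6, read 5′ to 3′ on the gene's strand and ending at or before the start, with annotated exon bases removed. Capitals mark the CCAAT box read by NF-Y (CCAAT or its reverse complement ATTGG), the cell cycle genes homology region (CHR, TTTGAA or TTCAAA) read by the MuvB complexes and the GGCGC form of the E2F site (TTTGGCGC or its reverse complement).
Cdk1 (chr10:69352939-69353072, minus strand): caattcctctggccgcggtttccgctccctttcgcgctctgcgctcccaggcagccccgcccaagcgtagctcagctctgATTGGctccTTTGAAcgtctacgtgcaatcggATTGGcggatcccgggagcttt
Top2a (chr11:99024190-99024349, minus strand): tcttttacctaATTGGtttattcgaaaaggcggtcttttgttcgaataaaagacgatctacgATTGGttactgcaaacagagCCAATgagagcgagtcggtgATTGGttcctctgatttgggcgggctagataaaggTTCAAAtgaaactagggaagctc
Ccnb2 (chr9:70421555-70421714, minus strand): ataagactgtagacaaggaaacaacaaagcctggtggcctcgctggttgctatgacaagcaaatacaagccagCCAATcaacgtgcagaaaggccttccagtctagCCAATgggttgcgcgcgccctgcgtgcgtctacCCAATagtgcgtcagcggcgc
Mcm6 (chr1:128359706-128359865, minus strand): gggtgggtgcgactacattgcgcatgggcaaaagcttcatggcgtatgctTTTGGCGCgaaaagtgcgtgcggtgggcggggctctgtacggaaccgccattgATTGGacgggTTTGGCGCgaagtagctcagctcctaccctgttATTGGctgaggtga
The CHR and a CCAAT box stood together in the windows of Cdk1 and Top2a, Ccnb2 held 3 CCAAT boxes, and Mcm6 held 2 E2F sites and 2 CCAAT boxes. None of the marked elements overlapped another. Over the 250 bases before the start, on both strands, the CHR was present for 17 of the 47 of 60 mitosis genes that had a RefSeq window (36.2%), for 4 of the 35 of 41 replication genes (11.4%) and for 10.8% of the 12222 tested genes that had one. A CCAAT box was present for 70.2% of these mitosis genes, 57.1% of the replication genes and 35.9% of all. The E2F form TTTGGCGC was found for 8.57% of the replication genes, 2.13% of the mitosis genes and 0.769% of all, and the form TTTCCCGC for 8.57%, 0% and 1.64%. These matches describe the letters in the windows and not binding.

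The levels of these 4 genes were separated between the ages. Cdk1 fell from 83.1 CPM (70.2 to 104) to 16.6 CPM (11.8 to 22), a log2FC of −2.29 (SE 0.0987, FDR = 9.71e-19), Top2a from 239 CPM (176 to 321) to 38.8 CPM (17.3 to 55.7), a log2FC of −2.77 (SE 0.126, FDR = 3.04e-18) and Ccnb2 from 54.7 CPM (47.6 to 67.0) to 8.36 CPM (5.48 to 13.4), a log2FC of −2.63 (SE 0.169, FDR = 1.39e-14). Mcm6 went from 163 CPM (139 to 189.8) to 32.0 CPM (25 to 38.3), a log2FC of −2.36 (SE 0.0743, FDR = 4.54e-22). The smallest falls were those of Espl1, separase (−0.46), Gins4 (−0.55) and Gins3 (−0.78). Pcna, the sliding clamp that also serves DNA repair, fell by 1.12 on the log2 scale and did not pass 2-fold (glmTreat FDR = 0.220). Transcripts were still detected at P15: Mki67, the proliferation marker Ki-67, had 24.9 CPM (8.30 to 44.5) against 167 CPM (79.9 to 265) at P6.

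Neural progenitors also divide at P6, so the markers of neural progenitors and immature neurons were set beside these lists mouse by mouse. This marker list, called progenitor markers for short, also holds genes of immature neurons, Dcx among them. The granule neuron and oligodendrocyte precursor markers were not set beside the cell cycle lists. The mean level of the mitosis genes stayed within 5.03 to 5.41 log2 CPM over the 10 P6 mice, while that of the progenitor markers ranged over 4.54 to 6.58. P6 male 5, which had the lowest progenitor level of its age (4.54), had a mitosis level of 5.38. P15 female 2 had a higher progenitor level than that mouse, 4.98, and a mitosis level of 2.83. For the replication genes the values of these mice were 5.29 and 3.07. With the progenitor covariate all 41 replication and all 60 mitosis genes fell, at medians of −2.08 and −2.40, and with the mature neuron covariate at medians of −2.12 and −2.50. How much of the fall belongs to progenitor RNA was not tested, since the covariate fit cannot tell it from age.

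**Figure D3:**
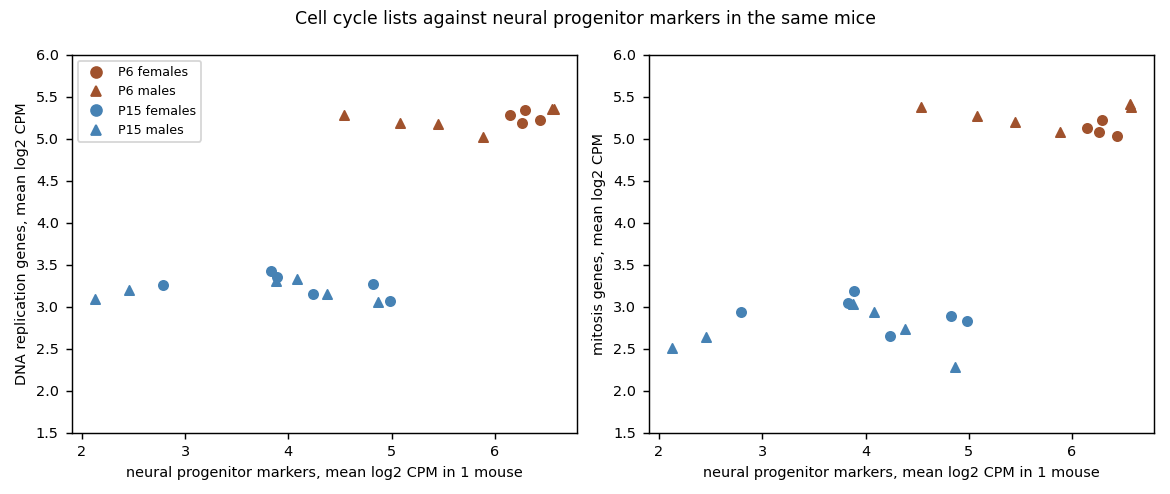
Mean log2 CPM of the DNA replication genes (left) and of the mitosis genes (right) against that of the markers of neural progenitors and immature neurons in the same mouse. P6 is in brown and P15 in blue, with females as circles and males as triangles. The ages form separate levels, and within P6 the cell cycle lists stay near 5.24 and 5.22 across the range of progenitor levels.

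Genes of the step into the division cycle were mixed. Of 23 G1 cyclins, kinases, inhibitors, E2F and retinoblastoma genes, 16 fell (8 past 2-fold) and 3 rose, with a median log2FC of −0.80, and with the progenitor covariate 17 fell and 1 rose. Ccnd2 fell from 412 CPM (105 to 653) to 67.9 CPM (15.7 to 116), a log2FC of −2.52 (SE 0.307, FDR = 2.21e-08), and with the progenitor covariate its log2FC was −0.50 (FDR = 0.0236). Ccnd1, which encodes another D-type cyclin, had 222 ± 36.0 and 189 ± 36.1 CPM and was not called (FDR = 0.0774), though it fell in 7 of 21 alternatives. Cdk4, the kinase they share, fell by 1.5 and Cdk6 was not called (−0.27, FDR = 0.0892) but was in 5 of 21 alternatives. E2f1 (−2.25), E2f7 (−2.71) and E2f8 (−2.46) fell past 2-fold, E2f3 rose (0.41, and 0.21, FDR = 0.249 with the progenitor covariate) and Rb1 was not called (−0.025, and −0.50, FDR = 0.0481 in males alone). The inhibitor gene Cdkn1a (p21) fell too, from 188 to 88.3 CPM (log2FC −1.07, SE 0.105, FDR = 2.46e-10).

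The mRNAs of replication-dependent histones lack a poly(A) tail, and near-identical copies of these genes can share reads, so that single members are uncertain. Of 44 tested, 27 fell, 13 past 2-fold, and 7 rose, and 5 had a mean of at least 10 CPM at P6 or P15. Without P15 males 5 and 6, and without all 4 of the males named, 4 rose, and with the progenitor covariate 2 rose and 6 fell past 2-fold. Of 25 chromatin writers and readers 13 fell and 6 rose. Uhrf1, which guides methylation to new DNA, went from 141 CPM (107 to 161) to 18.7 CPM (16.3 to 27.2), a log2FC of −2.85 (SE 0.142, FDR = 3.07e-17), and Dnmt1, the maintenance methyltransferase, from 187 to 74.2 CPM (log2FC −1.34, SE 0.0592, FDR = 1.62e-18). Ezh2, the Polycomb methyltransferase of dividing cells, fell by 1.93 while its counterpart in resting cells, Ezh1, rose (log2FC 0.90, SE 0.0793, FDR = 2.17e-11). Among chromobox genes Cbx2 (−1.36) and Cbx5 (−1.40) fell, and Cbx7 (1.08) and Cbx6 (0.68) rose. Dnmt3a, Tet1, Tet2 and Tet3 were not called (FDR between 0.211 and 0.50). Dnmt3a (0.30, FDR = 0.0439) and Tet2 (1.03, FDR = 0.00985) rose in females alone, and Tet1 (0.77, FDR = 0.0291) with the progenitor covariate.

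Fetal growth genes mostly fell. Of 21 RNA-binding, HMGA and imprinted genes of this kind, 15 fell, 8 past 2-fold, and 1 rose (median log2FC −1.0). The imprinted non-coding RNA H19 went from 15.4 CPM (10.8 to 21.3) to 1.31 CPM (0.319 to 3.34), a log2FC of −3.44 (SE 0.266, FDR = 1.14e-12). Igf2bp3, an RNA-binding protein of fetal cells, went from 59.2 CPM (57.2 to 97.7) to 19.8 CPM (9.11 to 24.7), a log2FC of −1.76 (SE 0.147, FDR = 6.58e-12), and Hmga1 from 130.0 to 64.5 CPM (log2FC −1.0, SE 0.104, FDR = 8.06e-10). Arid3b rose (1.02), and without P15 male 1, without P15 males 5 and 6 or with the mature neuron covariate 2 genes rose. Several of these genes are also active in neuroblasts and connective tissue, and with the progenitor covariate 6 fell, 3 past 2-fold, and 4 rose. Igf2bp3 had a log2FC of −2.28 in that fit (FDR = 1.48e-10) and H19 of −2.89 (FDR = 2.91e-07).

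Among genes of surface sensors more rose than fell. Among 19 purinergic receptors and nucleotide-degrading enzymes 12 rose and 2 fell. P2ry13, another ADP receptor, went from 313 CPM (271 to 514) to 1118 CPM (538 to 1529.9), a log2FC of 1.69 (SE 0.140, FDR = 5.57e-12), and Entpd1, the ectonucleotidase CD39, from 266 to 611 CPM (log2FC 1.25, SE 0.113, FDR = 4.74e-11). Adora3 (log2FC 1.51), P2rx7 (1.08) and P2ry6 (0.89), receptors for adenosine, ATP and UDP, rose as well, of which P2ry6 was not called with the progenitor covariate (0.26, FDR = 0.0775). P2ry2, a receptor for ATP and UTP, went the other way (7.04 to 1.95 CPM, log2FC −1.84, SE 0.222, FDR = 1.77e-08).

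Ion channel genes followed, with 18 of 25 rising, 6 past 2-fold, and 1 falling. With the progenitor covariate 3 rose past 2-fold and 2 fell, as 2 did with the mature neuron covariate. Trpm2, a channel opened by oxidative stress, rose from 5.93 CPM (4.38 to 8.45) to 41.5 CPM (28.3 to 68.5) without overlap, a log2FC of 2.83 (SE 0.152, FDR = 1.83e-16). The potassium channel genes Kcnk6 (1.59), Kcnk13 (1.05), which encodes the channel that sets microglial resting potential, and Kcnd1 (2.05) rose, and so did the proton channel gene Hvcn1 (1.06). Kcnj10, also a gene of astrocytes, rose too (2.11). Astrocyte markers rose as given above, and the part of astrocyte RNA was not tested. Clic4 fell (−0.87).

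Of 16 chemokine receptors 9 rose and 2 fell. Cmklr1, the chemerin receptor gene, rose from 74.5 to 217 CPM (log2FC 1.55, SE 0.119, FDR = 8.27e-13). Ccr2, a monocyte receptor, rose at a low level (1.64 to 4.41 CPM). Cxcr4 (−0.79) and Cxcr2 (−1.27) fell. Among Toll-like receptors and co-receptors 17 of 24 rose and 3 fell. Tlr3, a receptor for double-stranded RNA, rose most (log2FC 2.25), from 11.0 CPM (7.73 to 17.8) to 48.2 CPM (22.9 to 75.4), followed by Tlr5 (1.81) and Tlr12 (1.53). Tlr2, which recognises bacterial lipopeptides, fell from 257 to 146 CPM (log2FC −0.75, SE 0.124, FDR = 4.37e-06). Under the progenitor covariate 9 rose, 1 past 2-fold, and 9 fell, and without P15 male 1 the number that rose past 2-fold went from 3 to 5.

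Inhibitory and Fc receptors rose in 16 of 25 cases and fell in 3. Siglece (1.59), Siglech (1.21), Fcgr1 (1.26), Fcgr2b (1.18) and Lair1 (1.18) were among the rises. Cd200r4, which had 0 to 29 counts in the P15 libraries (3.30 to 0.444 CPM, log2FC −2.95, SE 0.293, FDR = 3.26e-10) and Lilrb4a (log2FC −1.27, SE 0.284, FDR = 2.69e-04), which is induced in phagocytic microglia, fell. The fall of Lilrb4a was not called in females alone (−0.38, FDR = 0.471) and was in males alone (−2.17, FDR = 3.39e-05). Under the progenitor covariate 8 rose, 0 past 2-fold, and 7 fell, and without P15 male 1 the number past 2-fold upwards went from 2 to 7. Integrin genes went both ways. Itgam, which encodes CD11b, rose from 141 CPM (119 to 219) to 467 CPM (272 to 650.4), a log2FC of 1.65 (SE 0.123, FDR = 3.96e-13) and its partner Itgb2 from 124 to 267 CPM (log2FC 1.13, SE 0.135, FDR = 1.42e-08), while Itgax and Itgal (−1.0), which pair with the same subunit, fell. In all 12 of 22 integrin and adhesion genes rose and 5 fell.

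Genes of the TGF-β pathway rose more often than they fell. Of 24 genes 15 rose, 4 past 2-fold, and 2 fell, while without P15 male 1 4 fell and with the progenitor covariate 2 rose past 2-fold. Tgfbr1, the type I receptor, went from 386 CPM (255 to 596) to 1178 CPM (261 to 1460.2), a log2FC of 1.51 (SE 0.188, FDR = 3.17e-08) and Tgfbr2 from 271 to 449 CPM (log2FC 0.75, SE 0.126, FDR = 6.12e-06). Smad7, a feedback inhibitor that TGF-β itself induces, rose 3.57-fold (FDR = 3.10e-14), and the co-receptor gene Eng rose 3.53-fold (FDR = 9.28e-15). Among the ligands Tgfb1 rose (0.56) and Tgfb2 fell (−0.95). Nrros, which holds latent TGF-β1 on the microglial surface, rose by 0.52 (FDR = 1.69e-04), and Smad2 was not called (−0.11, FDR = 0.342). With the progenitor covariate Tgfb1 (−0.13, FDR = 0.405), Tgfbr2 (−0.029, FDR = 0.827) and Nrros (−0.060, FDR = 0.692) were not called, Tgfb2 rose (0.58, FDR = 0.0149) and Smad2 fell (−0.48, FDR = 0.00593).

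Among receptors for apoptotic cells more genes rose than fell. Of 27 genes of TREM2 signalling and apoptotic-cell uptake 13 rose and 4 fell. Mertk, a receptor that engulfs apoptotic cells, rose from 169.7 CPM (133 to 274) to 464 CPM (186 to 626), a log2FC of 1.5 (SE 0.147, FDR = 2.64e-10), and Trem2 from 388 CPM (307 to 549) to 676 CPM (368 to 932) with overlapping ages, a log2FC of 0.74 (SE 0.121, FDR = 3.71e-06). Its adaptor gene Tyrobp was not called (0.21, FDR = 0.131) and neither was Axl (0.15, FDR = 0.318). The phosphatase gene Inpp5d (1.08) and the kinase gene Syk (0.86), which act below these receptors, rose. Mrc1 (−0.58), Cd36 (−0.61), Gas6 (−0.42) and Scarb1 (−0.37) fell, and Mrc1 is also a marker of border macrophages. Fitted with the progenitor covariate, 7 rose and 9 fell. In that fit Trem2 was not called (0.13, FDR = 0.407) and Tyrobp fell (−0.39, FDR = 0.0139). In females alone Mrc1 (−0.22, FDR = 0.518) and Cd36 (−0.35, FDR = 0.323) were not called, nor was Scarb1 in males alone (−0.24, FDR = 0.182).

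**Figure D4:**
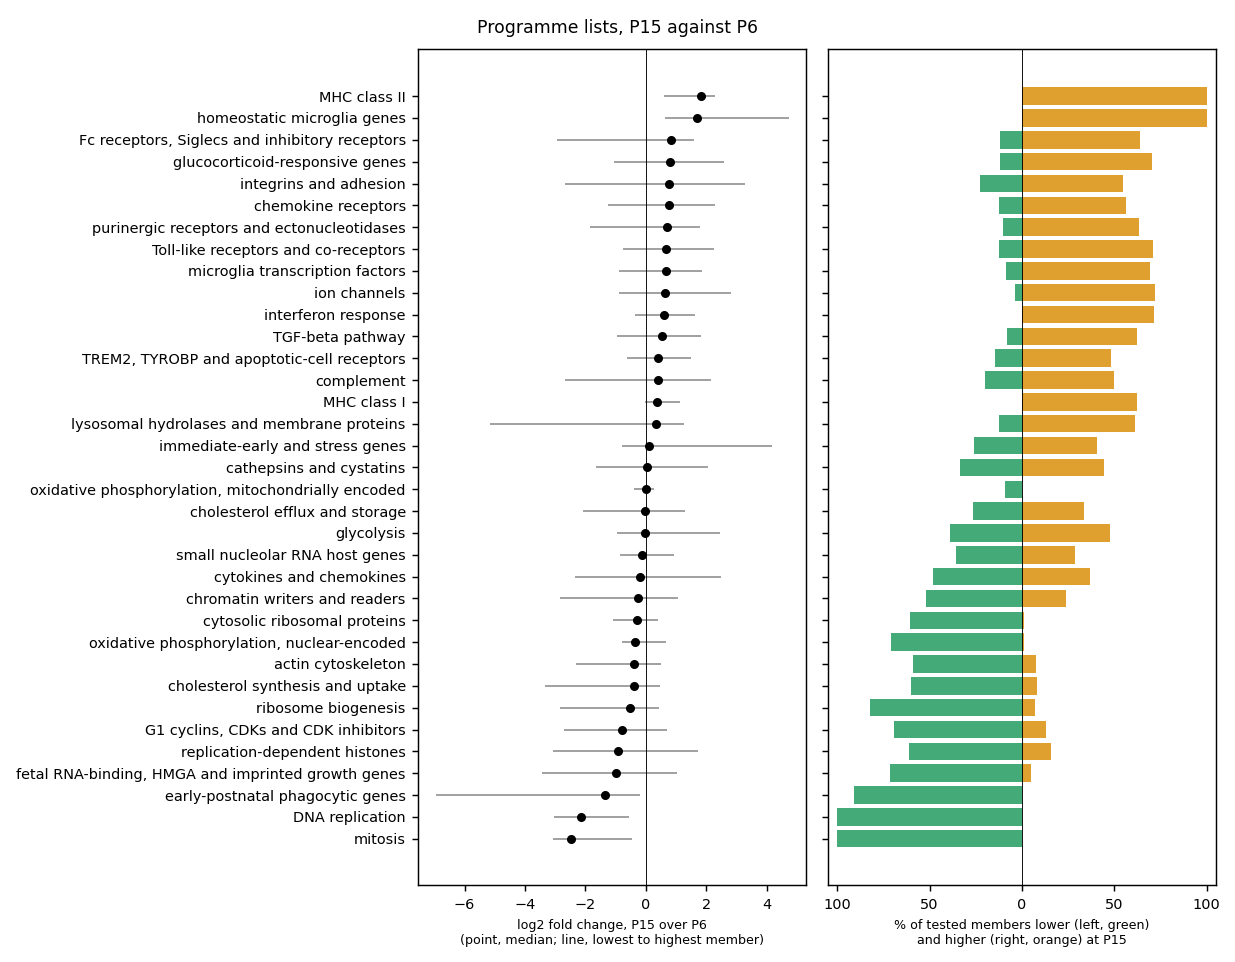
For each of the 35 programme lists, the left panel gives the median log2FC of P15 over P6 (point) with its lowest and highest member (line), and the right panel the percent of tested members that fell (green, left) or rose (orange, right). MHC class II and the homeostatic genes lie at the top, with all members higher, and DNA replication and mitosis at the bottom, with all members lower.

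Genes of antigen presentation rose. All 9 MHC class II genes rose, 8 past 2-fold (median log2FC 1.81), and the list's mean level did not overlap between the ages. H2-Aa went from 8.10 CPM (6.23 to 12.2) to 30.4 CPM (18.0 to 63.3), a log2FC of 1.99 (SE 0.194, FDR = 2.33e-10), H2-DMa, which loads peptides, from 25.7 to 102 CPM (log2FC 2.0, SE 0.151, FDR = 6.90e-13), and the master regulator Ciita from 0.291 CPM (0.0520 to 0.528) to 1.27 CPM (0.330 to 2.71), a log2FC of 2.29 (SE 0.315, FDR = 2.25e-07). Cd74, the invariant chain, rose least (0.61). These genes are shared with border macrophages, monocytes and B cells. Lymphocyte markers rose beside them, with Cd79a at 2.72 and 7.46 CPM, while the border macrophage list went both ways, as given above. The part of these cells in the rise was not tested. Under the progenitor covariate 8 rose, 1 past 2-fold, and in females alone 4 rose past 2-fold. Of 16 class I genes 10 rose, none past 2-fold and none fell (median 0.37), with H2-K1 at 328 and 479.9 CPM and B2m at 698 and 867 CPM. B2m was not called in 7 of 21 alternatives. Members of the class I family share sequence, so single genes of it are uncertain, and with the progenitor covariate 3 rose and 4 fell. In the latter fit Cd74 (−0.17, FDR = 0.454) and H2-K1 (−0.11, FDR = 0.536) were not called and B2m fell (−0.38, FDR = 0.0317), and in females alone Cd74 was not called (0.52, FDR = 0.0711).

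Interferon response genes rose in 20 of 28 cases with none falling, by little (median 0.59). Isg20 was the gene past 2-fold, from 7.22 to 21.9 CPM (log2FC 1.64, SE 0.220, FDR = 1.44e-07). Past 2-fold the count was 2 without P15 male 1 and 0 with the progenitor covariate, and 1 gene fell without P15 males 5 and 6, without all 4 males or with the mature neuron covariate. Irf9 (0.98), Stat2 (0.89) and Irf7 (0.79), transcription factors of the response, rose, of which Irf7 was not called with the progenitor covariate (−0.15, FDR = 0.704). In males alone 10 rose and 2 fell, in females alone 19 and 0, and with the progenitor covariate 4 and 4. Complement genes rose in 10 of 20 cases and fell in 4. The C1q chains C1qa, C1qb and C1qc, which tag synapses, rose to 3176, 2879 and 3174 CPM (log2FC 1.11, 0.84 and 0.86). C3ar1, the C3a receptor, fell (log2FC −0.80, SE 0.129, FDR = 3.50e-06), and C3 itself was not called (0.22, FDR = 0.323). Under the progenitor covariate 6 rose and 5 fell. In that fit C1qb (0.18, FDR = 0.312) and C1qc (0.21, FDR = 0.251) were not called and C3 fell (−0.61, FDR = 0.0467), and in females alone C3ar1 was not called (−0.45, FDR = 0.0512).

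Cytokines and chemokines went in both directions. Of 27 genes 13 fell, 5 past 2-fold, and 10 rose, 2 past 2-fold. Cxcl10 went from 115 CPM (52.3 to 161) to 18.3 CPM (8.71 to 28.1), a log2FC of −2.34 (SE 0.194, FDR = 5.84e-12), and Ccl2 from 118 CPM (52.0 to 207) to 34.3 CPM (11.7 to 47.3), a log2FC of −1.75 (SE 0.184, FDR = 1.10e-09). Ccl3 (−1.12), Tnf (−1.12) and Il1b (−1.24) fell as well, and so did Csf1 (361 to 158 CPM, log2FC −1.15, SE 0.160, FDR = 2.63e-07), a growth factor of macrophages. Il16 (1.33), Tgfb1 and Cxcl14 (2.51) rose. In females alone 9 fell, 0 past 2-fold, in males alone 13 fell, 7 past 2-fold, and with the progenitor covariate 15 fell, 10 past 2-fold, and 4 rose, 1 past 2-fold. Il1b was not called in females alone (−0.62, FDR = 0.130), and Tgfb1 with the progenitor covariate, as given above.

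Immediate-early and stress genes, which respond within minutes and also to tissue dissociation, rose in 11 of 27 cases and fell in 7. Over all genes 30.4% rose and 31.4% fell. The heat shock genes Hspa1a and Hspa1b, near-identical copies whose reads may be shared, rose 10.6-fold and 18.0-fold. Hspa1b lay at 23.7 CPM (2.63 to 65.8) at P6 and 426 CPM (143 to 839) at P15. Jun (0.92) and Junb (1.10) rose, while Fos (0.35, FDR = 0.115), Egr1 (−0.38, FDR = 0.0552) and Atf3 (0.063, FDR = 0.735) were not called. Egr1 fell in 11 of 21 alternatives, and with the progenitor covariate Fos (−0.60, FDR = 0.0427) and Atf3 (−0.62, FDR = 0.00731) fell and Jun (0.45, FDR = 0.0761), Junb (0.38, FDR = 0.0683) and Nr3c1 (0.44, FDR = 0.0700) were not called. Fitted with the progenitor covariate, 4 rose and 13 fell, and in females alone 9 and 1. Glucocorticoid-responsive genes rose in 12 of 17 cases and fell in 2. Sgk1, a kinase gene induced by these hormones, went from 245 CPM (164 to 401) to 1358 CPM (736 to 2256) without overlap, a log2FC of 2.58 (SE 0.164, FDR = 1.02e-14). Klf9 (1.53), Tsc22d3 (1.35) and Fkbp5 (0.79) rose with it, as did the receptor gene Nr3c1 (0.80). The P15 mice fell into 2 levels on this list, with females 1, 2 and 3 and male 1 between 5.65 and 5.89 log2 CPM and the other eight between 5.12 and 5.26, all above the P6 mice (4.55 to 4.79). Females 1, 2 and 3 and male 1 also had the highest granule neuron marker levels at P15, from 4.29 to 5.30 against at most 4.23 in the others. The part of other cells' RNA in this split was not tested. With P15 male 1 left out, 11 rose, 4 past 2-fold, and 1 fell without P15 males 5 and 6, without P6 female 3 or with the progenitor covariate.

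Lysosomal genes rose a little, and cathepsins and cystatins went both ways. Of 41 lysosomal genes 25 rose and 5 fell (median log2FC 0.35), with none rising past 2-fold (1 without P15 male 1). Man2b1 (0.98) and Npc1 (0.76) rose, and Lamp1 (−0.11, FDR = 0.258) and Cd68 (0.18, FDR = 0.185) were not called. The one large change was the loss of Atp6v0d2, the macrophage form of a proton pump subunit, from 11.3 CPM (5.85 to 18.8) to 0.279 CPM (0 to 0.693). With library size scaling 23 rose and 10 fell, with the mature neuron covariate 9 fell, 8 fell without P15 males 5 and 6, and with the progenitor covariate 7 rose and 17 fell. Of 18 cathepsins and cystatins 8 rose (5 with the progenitor covariate) and 6 fell, at a median log2FC of 0.043. Ctsb fell from 5146 CPM (3966 to 7083) to 2967 CPM (1999.9 to 4266), a log2FC of −0.78 (SE 0.107, FDR = 2.12e-07) and Ctsl with it (−0.73), whereas Ctss, the protease that trims the class II invariant chain, rose from 947 CPM (818 to 1424) to 2437 CPM (1295 to 3478), a log2FC of 1.27 (SE 0.137, FDR = 1.74e-09) and Ctsd rose by 0.68. Cystatin B (Cstb) fell (−1.06) while cystatin C rose, as given above. With the progenitor covariate Cd68 (−0.50, FDR = 4.59e-04) and Lamp1 (−0.55, FDR = 1.06e-05) fell and Ctsd was not called (0.12, FDR = 0.439), and Lamp1 fell in 3 of 21 alternatives in all.

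Metabolic genes went both ways. Glycolytic genes rose in 11 of 23 cases and fell in 9. Ldha (−0.89), Pkm (−0.80), Pgk1 (−0.95) and Gapdh (−0.58) fell, while Ldhb (1.10), Hk2 (0.96), Eno2 (1.68) and Aldoc (2.46) rose. Eno2 is otherwise a neuronal and Aldoc an astrocytic isoform. Astrocyte markers rose and mature neuron markers went both ways, as given above, and the part of these cells was not tested. P15 male 1 had the highest level of this list at P15. Cholesterol synthesis genes fell in 15 of 25 cases and rose in 2, with Hmgcs1, which feeds the pathway, at 199 and 119 CPM (log2FC −0.76, SE 0.154, FDR = 8.67e-05), but with the progenitor covariate 1 fell and 8 rose, and Hmgcs1 was not called (0.14, FDR = 0.442). Without any one P6 female, or without all 4 of the males named, 1 of these genes rose. The lipid droplet gene Plin2 fell from 279.8 CPM (229 to 366) to 71.3 CPM (56.0 to 87.5), a log2FC of −2.01 (SE 0.0962, FDR = 1.06e-17), and Abca1, which exports cholesterol, fell as well (−0.49) but was not called in females alone (−0.065, FDR = 0.821). In all, 5 of 15 efflux and storage genes rose and 4 fell, shares near those over all genes, and with the progenitor covariate 3 rose and 7 fell.

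Genes of protein synthesis and respiration mostly fell, by small steps. Of 79 ribosomal protein genes 48 fell and 1 rose (median −0.29), of 79 nuclear genes of oxidative phosphorylation 56 fell and 1 rose (median −0.36), and none of either list passed 2-fold. Under library size scaling 69 and 70 fell, in males alone 13 and 20, and with the progenitor covariate 72 and 29, when 0 genes of the second list rose. Of 11 mitochondrially encoded genes of the same complexes 1 fell and none rose, and 0 fell without P15 males 5 and 6, without all 4 males, without P6 female 5 or with either covariate. Ribosome biogenesis genes fell in 23 of 28 cases and rose in 2, but 1 rose in each fit without libraries or with the mature neuron covariate and 0 with the progenitor covariate. Npm1 (368 to 166 CPM, log2FC −1.11, SE 0.154, FDR = 2.26e-07) and Ncl (−1.07), proteins of the nucleolus, fell, and Mycn, which is used by neural progenitors, fell from 26.1 CPM (7.95 to 40.6) to 3.52 CPM (1.05 to 6.89). The log2FC of Mycn was −3.08 in females alone, −2.57 in males alone and −0.78 (FDR = 0.0050) with the progenitor covariate. Myc rose (0.44) but was not called in males alone (0.12, FDR = 0.604) or with the progenitor covariate (−0.23, FDR = 0.238). Of 14 small nucleolar RNA host genes 4 rose and 5 fell, which is near the shares over all genes. Actin cytoskeleton genes fell in 16 of 27 cases and rose in 2 (1 without all 4 males or without any one P6 female), with Cfl1, cofilin, at 2234 and 1272 CPM (log2FC −0.81, SE 0.0966, FDR = 1.28e-08) and Tmsb4x at 4449.5 and 2835 CPM (−0.63), while Actb was not called (−0.15, FDR = 0.263) but fell in 3 of 21 alternatives. Stmn1 fell most (−2.30), and it is also a gene of young neurons and of dividing cells.

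Whether the change from P6 to P15 differed between females and males was tested gene by gene. The interaction of sex and age was called for 0 genes by edgeR's quasi-likelihood test (lowest FDR = 0.152), although 3593 of the 17612 genes had an unadjusted p under 0.05. That is more than a share of 0.05, so the 0 calls do not show that the sexes changed alike. At P6 the progenitor level ran from 6.15 to 6.44 in females and from 4.54 to 6.58 in males, and its part here was not tested. DESeq2 called 145, edgeR without P15 males 5 and 6 called 56, and edgeR without these and P6 males 1 and 5 called 1. The lowest unadjusted p values belonged to Stk38l, with a log2FC of 0.16 in females and −0.69 in males, and Tmc7 (2.64 and 1.91), and the remaining 8 of the lowest 10 were Il10, Tank, Zfp324, Fbxo30, Gm43011, Eif1a, Trappc5 and Casp4. All 10 had an FDR of 0.152. The lists had medians of 1.66 in females and 1.56 in males for the homeostatic genes, of −1.41 and −1.52 for the phagocytic genes and of −2.26 and −2.63 for mitosis.

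Beside the 8-week mice, the programmes differed in how their change was placed before and after P15. This comparison shares the P15 mice with the one above, so the values are only set side by side. The homeostatic genes had a median log2FC of 1.70 from P6 to P15 and of 0.18 from P15 to 8 weeks, and the phagocytic genes of −1.36 and 0.10. Tmem119 reached 2572 ± 518 CPM and Spp1 10.2 ± 3.28 CPM at 8 weeks (n = 12). Mitosis genes fell by a median of 2.48 and then by 2.41, so that a similar step followed, and Mki67 was at 3.43 CPM (0.938 to 6.87) at 8 weeks. Replication genes fell by 2.16 and by 0.78. MHC class II genes had medians of 1.81 and 1.23. Some genes turned back: Tnf had 284, 126 and 264 CPM at the 3 ages, Ccl3 782, 333 and 711 CPM, Il1b 34.4, 12.9 and 60.9 CPM, and Lilrb4a 23.4, 9.02 and 33.9 CPM, each with a lower mean at P15 than at either other age. Sparc (1956, 6756 and 4271 CPM) and Crybb1 (319, 494 and 214 CPM) had their highest mean at P15.

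**Figure D5:**
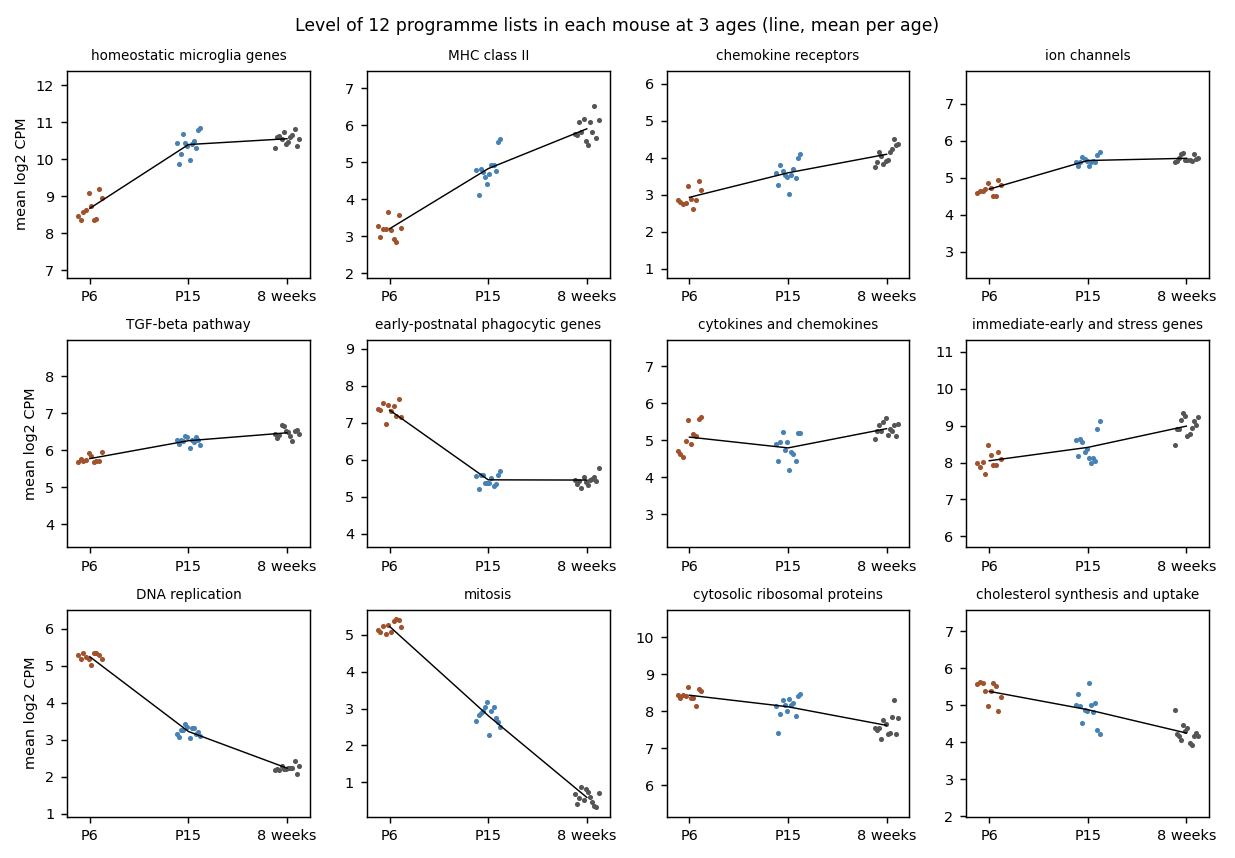
Mean log2 CPM of 12 programme lists in each mouse at P6 (n = 10, brown), P15 (n = 12, blue) and 8 weeks (n = 12, grey), with a line through the age means and the same span on every vertical axis. Homeostatic and phagocytic lists make most of their move by P15, while replication and mitosis genes go on falling and MHC class II goes on rising.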

How the data were processed

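mRNA-seq libraries of CD45-immunopanned cells from single mouse brains were analysed. Per the paper's methods and the labels, the authors trimmed reads (fastp 0.20.0 in the submitters' processing notes), aligned them with STAR to GRCm38/mm10 and counted fragments per gene with featureCounts on the reverse strand, and they deposited raw counts with no normalization. The annotation release is not given in the sources used here. GENCODE M21 names matched 55141 of 55401 gene identifiers. The programmes, gene lists and tests were chosen with earlier results of these data known.

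Counts were fitted with edgeR 4.0.16 (R 4.3.3; TMM, robust quasi-likelihood) over 6 age and sex groups of 34 mice, keeping a gene where 5 or more mice reached 0.5 CPM. P15 was contrasted with P6 with the sexes averaged, by glmQLFTest and by glmTreat at 2-fold. Log2 CPM used a prior count of 2, and the fit was checked on simulated data. Named were the 15 protein-coding genes with the largest rise and the 15 with the largest fall past 2-fold, with a mean of at least 10 CPM at the higher age and no overlap, the 10 genes with the lowest interaction p, Ptprc and list members. List members named in the text were picked for their role after their values were seen. Alternatives were all 35 mice, library size scaling, DESeq2 size factors, limma-voom (limma 3.58.1), DESeq2 1.42.0, 2 other filters, the P6 and P15 mice alone, age without sex, each sex alone, a replicate block, a mature neuron covariate and leaving out each P6 female. The progenitor covariate and the fits without P15 males 5 and 6, without these and P6 males 1 and 5, and without P15 male 1 were added after the data were seen. No 2 mice of a group agreed within counting noise. A few list members and 1 gene of the largest rises are not reported here.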

Additional observations from a re-analysis of the deposited data

Results flagged for a closer look

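In each age and sex, the highest and lowest mouse was compared with the rest of its group by Dixon's test, over 82 genes and lists and 328 groups, of which chance alone flags about 1 in 20. The 17 values that lay apart are given in log2 CPM with that of the nearest other mouse of the group. P15 male 1 accounted for 8 of them. It was low in Ptprc (4.92 against 6.93), Il7r (2.75 against 4.29), Spp1 (1.06 against 2.76), the chromatin genes (4.28 against 4.74) and the TREM2 list (6.63 against 7.0), and high in the glucocorticoid-responsive genes (5.65 against 5.26), glycolysis (7.98 against 7.37) and nuclear-encoded oxidative phosphorylation (6.30 against 5.68). Without this mouse 917 genes rose and 993 fell past 2-fold. Among the other P15 mice, female 2 was low in Itgae (2.94 against 3.55) and male 5 was high in the histones (0.18 against −0.33). At P6, female 2 was high in Gabra6 (−1.80 against −4.01), female 5 was low in Atp6v0d2 (2.56 against 3.49), and female 3 was high in Kntc1 (4.85 against 4.55) and low in the fetal growth genes (3.71 against 3.92). Male 4 was low in glycolysis (6.82 against 7.11) and high in neutrophil markers (2.90 against 1.26), and male 5 was low in fibroblast markers (3.65 against 4.67).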

How the results depend on the processing

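The number of genes past 2-fold upwards was 552 with limma-voom and TREAT and 497 where at least 10 counts in every mouse were required, and the number past 2-fold downwards was 470 in the latter, which tested fewer genes (13655). With the progenitor covariate 461 genes fell past 2-fold. The interaction of sex and age was called for 145 genes by DESeq2, 56 without P15 males 5 and 6 and 1 without these and P6 males 1 and 5. The cause of these moves was otherwise not tested. In all other settings the counts stayed within 1.5 times. Leaving out each P6 female in turn gave 760 to 811 rises and 787 to 854 falls past 2-fold, 4904 to 5103 rises and 5274 to 5540 falls, and 0 interactions each time. The replicate numbers were not used to pair the mice in the main fit. Of 10 same-numbered pairs of a P6 and a P15 mouse, 6 had deviations correlated above 0.1 (range −0.264 to 0.566). Pairs with different numbers were not compared, so whether mice of a number share a handling was not tested. With the number as a replicate block 794 genes rose and 830 fell past 2-fold, and 5029 rose and 5428 fell. Of 216 named genes the settings other than the progenitor covariate and the single sexes turned none, with 198 of the 216 tested where at least 10 counts in every mouse were required. Under the progenitor covariate 16 turned, in log2FC Atf3 (−0.62), B2m (−0.38), C3 (−0.61), Cd68 (−0.50), Cd74 (−0.17), Fos (−0.60), H2-K1 (−0.11), Hmgcs1 (0.14), Irf7 (−0.15), Myc (−0.23), Nrros (−0.060), Runx1 (−0.46), Tgfb1 (−0.13), Tgfb2 (0.58), Tgfbr2 (−0.029) and Tyrobp (−0.39). In females alone Casp4 (0.34), Fbxo30 (0.25) and Stk38l (0.16) turned, and in males alone Ptprc (−0.14), Gm43011 (−0.38), Il10 (−0.12) and Trappc5 (0.40). A setting was counted as turning a gene only where the gene was called in one of the fits compared. Depth limits the lowest genes: Gabra6, Kcng4, Cbln3 and Ciita at P6 and Prdm13, Atp6v0d2 and Cd200r4 at P15 had libraries at or under 3 counts, and their fold changes depend on the prior count.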
